A study of Saccharomyces cerevisiae with 6 samples.

Results

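The TBP-Y185C strain of budding yeast, which lives on a variant of the TATA-binding protein (TBP) in place of the ATPase Mot1, was compared with the wild-type MOT1 strain (WT). The comparison rests on 2 of the 6 two-colour oligonucleotide arrays of the study, chosen by the strain label. RNA of TBP-Y185C carried Cy5 on array 1 and Cy3 on array 2, and WT RNA carried the other dye. The remaining 4 arrays set TBP-F207L, a second bypass strain, and mot1-14, a mutant of MOT1 itself, against the same WT, again with 2 arrays per strain. Per the labels, the TBP-Y185C, TBP-F207L, mot1-14 and WT strains were one parent, AY138, that kept a different plasmid after selection on FOA, the drug that removes cells with a URA3 plasmid. Cells were grown in YPD, a rich glucose medium, at 30 °C to mid-growth density.

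TBP binds the TATA region of promoters and is needed by RNA polymerases I, II and III. Mot1 uses ATP to take TBP off DNA, which frees it from some promoters and makes it available to others, and yeast cells normally die without it. A bypass variant of TBP lets cells live without Mot1, and the comparison with WT asks how far gene expression in such cells departs from normal. In yeast, stress genes and many genes with a strong TATA box depend on the SAGA coactivator, whereas ribosomal protein and other growth genes depend mostly on the TFIID complex.

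Each array held 6256 gene probes, 1 per gene, and 6232 were tested. Values below are log2 ratios of normalised intensity, TBP-Y185C over WT, averaged over the 2 arrays, unless a level or a fold is named, and SE is the standard error from the limma model over the 6 arrays. A gene was said to rise or fall when its Benjamini-Hochberg adjusted p in that model was under 0.05. The log2 ratios of the 2 arrays correlated across genes at r = 0.957, and the median gene differed by 0.11 between them. Whether each array had its own culture is not stated in the labels, and the p-values therefore cover the spread between arrays, which may be technical. WT entered each array as the same control, and its own spread is not in the tests. Each strain pair sat on a slide of its own, so slide and strain cannot be told apart.

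The genes that define the strain were examined first. MOT1 (YPL082C) had normalised intensities of 64 and 86 in TBP-Y185C, against 846 and 833 in WT, on arrays 1 and 2. Its log2 ratios were -3.73 and -3.28, a level 11.4-fold lower in TBP-Y185C (SE 0.30, adjusted p = 2.84e-05). The TBP-Y185C intensities of MOT1 lay near the offset of 50 added in background correction, so this fold is approximate. SPT15 (YER148W), the gene for TBP, was at 4.28 and 3.87, or 16.9-fold higher in TBP-Y185C (SE 0.10, adjusted p = 1.82e-07). Levels of both genes went with the strain label on each array. PEA2, a polarity gene next to SPT15 in the gene order, was at 3.46 and 3.63 (SE 0.03, adjusted p = 1.97e-08). On the other side of SPT15, the cohesin loader gene SCC4 was at -0.57 and -0.16. Its fall no longer passed without the dye term of the model. SPI1, a cell wall gene beyond PEA2, was at 1.77 and 1.62. SPI1 also rose in TBP-F207L (1.01) and mot1-14 (1.23), whereas PEA2 was at 3.23 in TBP-F207L and -0.32 in mot1-14.

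Of the auxotrophic marker genes, TRP1 and LEU2 behaved differently from their neighbours. Neighbours of URA3 and HIS3 were not examined. TRP1, of tryptophan synthesis, had intensities of 19078 and 29447 in TBP-Y185C, against 463 and 1503 in WT. Its ratios of 5.36 and 4.29 averaged to a 28.4-fold rise (SE 0.13, adjusted p = 1.99e-07). The neighbours of TRP1 were far lower, with SOK1 at -0.34 and GAL3 at -0.08, the second of which did not pass. LEU2, of leucine synthesis, was at 1.87 and 2.04, against 0.15 for its neighbour NFS1 and 0.07 for YCL021W-A. NFS1 was at 0.12 without the first array, and did not pass without the dye term or with the deposited log ratios. YCL021W-A did not pass (-0.27 and past the test with median centring). URA3 was at -0.28, or -0.27 and no longer past the test without the first array, and HIS3 was at -0.05 and did not pass. Beside MOT1, the ratios were -0.25 for SEN54 and -0.68 for the ribosomal protein gene RPS9A. Values of MOT1, SPT15, PEA2, TRP1 and LEU2 may reflect how the strains were built, and regulation cannot be told apart from it.

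In TBP-Y185C, 4970 of 6232 genes passed the test (79.7%), 2553 higher (41%) and 2417 lower (38.8%). These percentages are the background for the counts of list members over WT below. With median centring in place of loess, 2315 genes rose and 2282 fell. Counts against the other strains, or under another setting, have a background of their own. In the main fit the median of the 6232 genes was -0.01. The genes that passed mostly changed little, by a median of 0.38 in size. Of these genes, 1560 changed by under 0.25 and 1534 by 0.25 to 0.5. At 2-fold or more there were 400 higher genes (6.42%) and 122 lower genes (1.96%). All 522, chosen by the mean of these 2 arrays, kept their sign on both, which that choice largely ensures. Of them, 439 reached 2-fold on each array alone. Rises of 2 to 3 on the log2 scale occurred in 54 genes and larger rises in 6, whereas MOT1 alone fell by over 2. The scanner software's own p-values, taken at 0.01 on both arrays, called 2066 genes. Because loess sets each array's centre to about 0, a change common to all transcripts would be missed.

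**Figure D1:**
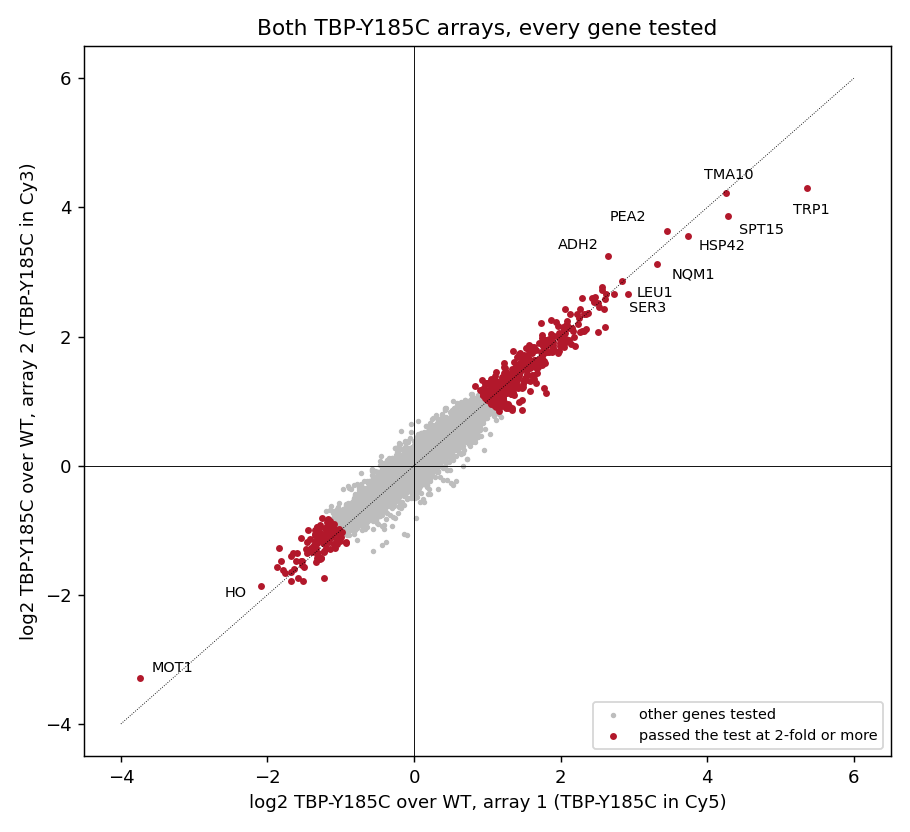
Log2 ratio of TBP-Y185C over WT on array 1 (x axis) and array 2 (y axis) for each gene tested, with the 522 genes that passed at 2-fold or more in red and a dotted line of equality. TRP1, TMA10, SPT15, HSP42 and PEA2 stand at the top right and MOT1 alone at the far bottom left.

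Outside the construction genes, the largest rise was in TMA10, for a ribosome-associated protein. Its intensities were 5412 and 6470 in TBP-Y185C, against 284 and 348 in WT, which is 18.8-fold higher (4.25 and 4.22 on the arrays, SE 0.11, adjusted p = 1.82e-07). HSP42, a small heat shock chaperone that collects misfolded protein, had 3903 and 3975 in TBP-Y185C, against 292 and 337 in WT. That rise was 12.6-fold (SE 0.09, adjusted p = 1.74e-07). On each array both genes were far above their WT level. NQM1, a transaldolase of stressed cells, rose 9.32-fold (3.32 and 3.12) and ADH2, the alcohol dehydrogenase that consumes ethanol and is repressed by glucose, 7.72-fold (2.65 and 3.25). LEU1, which isomerises isopropylmalate on the way to leucine, rose 7.19-fold with ratios of 2.84 and 2.86. The other members of the leading 15 were STF2, a regulator of ATP synthase, at 2.79 and SER3, the first enzyme of serine synthesis, at 2.69. AIM19, a mitochondrial protein, followed at 2.67, PHM8, a lysophosphatidic acid phosphatase, at 2.65 and BTN2, a sorting factor for misfolded protein, at 2.64. CYC7, the hypoxic cytochrome c, was at 2.59 and CDA1, which makes spore wall chitosan, at 2.54.

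The falls were shallower. HO, the endonuclease of mating-type switching, had intensities of 90 and 105 in TBP-Y185C, against 381 and 384 in WT, 3.94-fold lower (SE 0.10, adjusted p = 2.6e-06). BNA1, which acts late in the making of NAD from tryptophan, had 566 and 375 in TBP-Y185C, against 1805 and 1300 in WT (3.32-fold lower, SE 0.04, adjusted p = 1.82e-07). The array levels of BNA1 moved in parallel in both strains, and the ratios of -1.67 and -1.79 were close. SES1, the seryl-tRNA synthetase, fell by 1.72, as did YLR126C, a glutamine amidotransferase homolog. FDC1, a decarboxylase of ferulic acid, fell by 1.71. The ribosome genes RPS8A, RPL20A and ARX1, an export factor of the large subunit, each fell by 1.66. IRC7, a cysteine beta-lyase, fell by 1.65 and the RNA helicase gene DBP2 by 1.62. IMD2, an IMP dehydrogenase with near-identical relatives, was at -1.85 and -1.27. MIS1, the mitochondrial C1-tetrahydrofolate synthase, and SCP160, an RNA-binding protein at polysomes, each fell by 1.54, and ELP2, an Elongator subunit, by 1.53.

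Of 18 genes for TBP and its direct partners, 12 rose and 4 fell, with a median of 0.16. These counts include SPT15 and MOT1, which may reflect how the strains were built. BUR6, a subunit of the NC2 complex that represses TBP, rose by 1.39 (1.34 and 1.44, SE 0.04), while the gene of its partner, NCB2, was at 0.13 and did not pass (NCB2 was picked after its value was seen, as was LEU3 below). The TATA-binding partners moved apart, with the TFIIA subunit gene TOA2 at -0.38 and the TFIIB gene SUA7 at 0.33. SPT3 and SPT8, the SAGA subunits that contact TBP, rose by 0.66 and 0.32. NHP6B, an architectural DNA-binding protein, rose by 0.68. Among 14 TFIID subunit genes 5 rose and 4 fell (median -0.02), from TAF10 at 0.76 to TAF6 at -0.58. Of 14 SAGA genes 5 rose and 9 fell (median -0.22). The SAGA scaffold gene HFI1 fell by 0.80, TRA1, its activator-binding subunit, by 0.75 and the acetyltransferase gene GCN5 by 0.72, whereas SPT20 rose by 0.68. Of 25 Mediator genes 11 rose and 5 fell (median 0.09), with CSE2 at 0.82 and SRB2 at -0.55. In the list of TFIIE, TFIIF and TFIIH 7 of 15 genes rose and 5 fell, and the small TFIIH subunit gene TFB5 rose by 1.40. Of 12 RNA polymerase II subunit genes 3 rose and 7 fell, with RPB2, the second-largest subunit, at -0.52. With median centring 3 of them rose and 3 fell.

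General stress genes, which yeast induces in many unfavourable conditions, rose in 45 of 50 cases and fell in 1, YNL134C at -0.74. Their median was 1.29, against 0.94 in TBP-F207L and 1.16 in mot1-14. In TBP-Y185C, 34 of them rose by 2-fold or more. After TMA10, NQM1 and STF2 came MOH1 at 2.50, ROQ1, a regulator of the ubiquitin ligase Ubr1, at 2.35 and MSC1 at 2.33. Of 11 small heat shock and stress membrane protein genes 8 rose and 2 fell. HSP26, the other major small heat shock chaperone, had ratios of 2.35 and 2.12, a 4.71-fold rise (SE 0.06, adjusted p = 1.99e-07). HSP30 and HSP12, both at the plasma membrane, rose by 2.29 and 2.08, whereas HSP31 fell by 0.43. Of 32 cytosolic chaperone genes 21 rose and 7 fell (median 0.54). The disaggregase gene HSP104 rose by 2.34, HSP82, the inducible Hsp90, by 2.27, the J-protein gene SIS1 by 1.88 and SSA4, an Hsp70 of stressed cells, by 1.85. The ribosome-bound Hsp70 genes SSB1 and SSB2 moved the other way, at -0.64 and -0.55, and so did PPT1, the phosphatase that acts on Hsp90, at -1.50. Mitochondrial chaperone genes rose in 7 of 11 cases, led by the disaggregase gene HSP78 at 2.29, and fell in 3, including SSC1 at -0.36. Of 20 chaperone genes of the endoplasmic reticulum 11 rose and 5 fell (median 0.15), with the J-protein gene ERJ5 at 1.39, PDI1, a disulfide isomerase, at 1.04 and the Hsp70 gene KAR2 at 0.80.

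**Figure D2:**
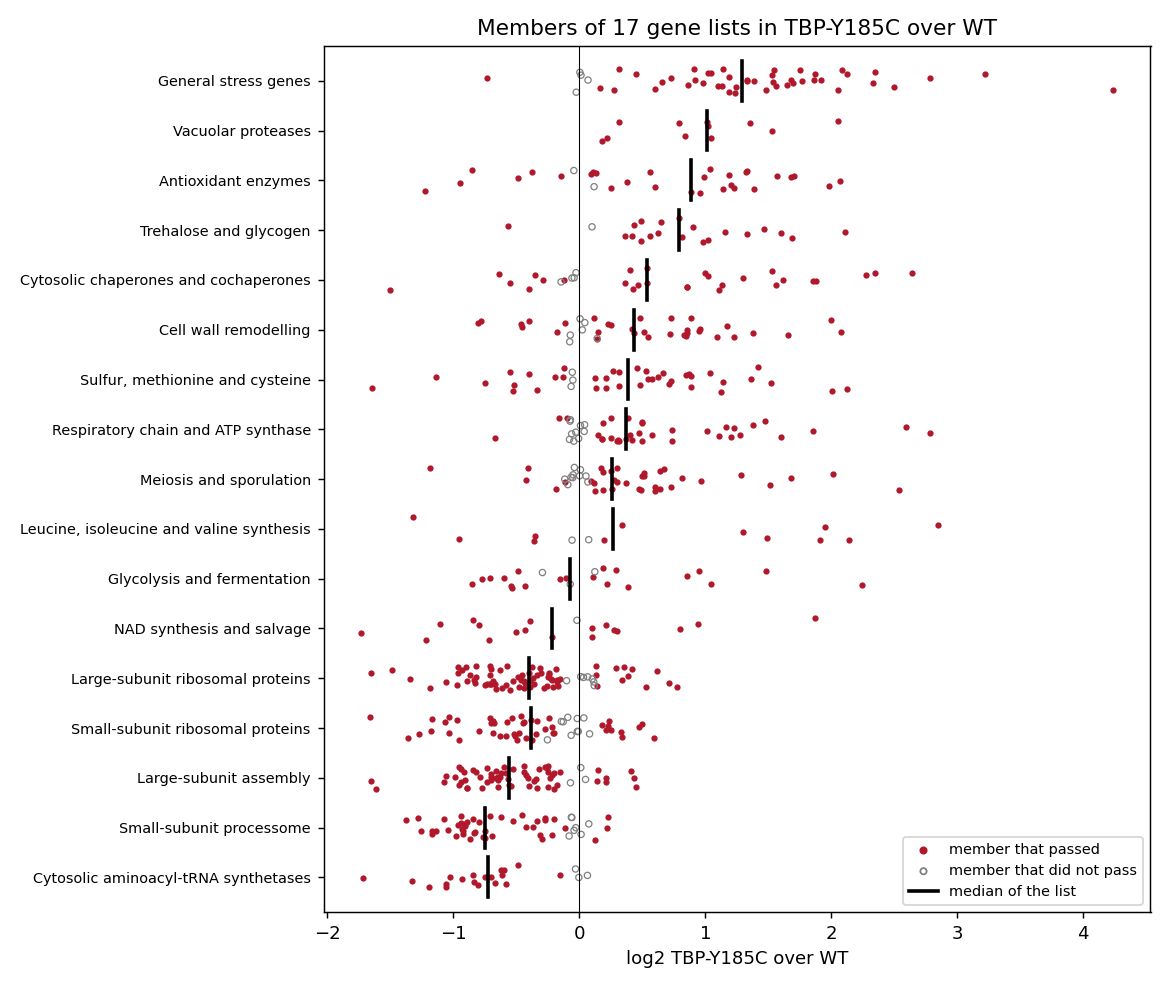
Log2 ratio of TBP-Y185C over WT (x axis) for each tested member of 17 gene lists, filled where the member passed and open where it did not, with a bar at the list's median. Medians run between 1.29 for general stress genes at the top and -0.73 for cytosolic aminoacyl-tRNA synthetases at the bottom.

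Of 31 antioxidant genes 23 rose and 6 fell, with a median of 0.89. The mitochondrial peroxiredoxin gene PRX1 rose by 2.07, CCP1, the cytochrome c peroxidase, by 1.98, the glutaredoxin gene GRX2 by 1.71 and the cytosolic catalase gene CTT1 by 1.68. GSH2, the last enzyme of glutathione synthesis, fell by 1.22, the transferase gene GTT2 by 0.95 and the thioredoxin reductase gene TRR1 by 0.85. All 11 vacuolar protease and inhibitor genes rose (median 1.01). Among them were TFS1, an inhibitor of carboxypeptidase Y, at 2.05, PAI3, an inhibitor of proteinase A, at 1.53, and the proteases PRB1 at 1.35, PRC1 at 1.04 and PEP4 at 1.02. Protease genes and the genes of their inhibitors rose side by side. Of 24 autophagy genes 17 rose and 3 fell (median 0.29), with ATG8, the ubiquitin-like protein of the autophagosome, at 1.85 and ATG33, of mitophagy, at 1.60. Of 34 proteasome genes 21 rose and 6 fell (median 0.17). RPN4, the activator of these genes, rose by 1.19, RPN8 by 0.98 and PRE7 by 0.79, while RPN10, a ubiquitin receptor, fell by 0.83 and PRE4 by 0.57.

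Storage carbohydrate genes rose in 19 of 21 cases, with a median of 0.79, and 1 fell. TSL1, a subunit of trehalose synthase, rose by 2.11, the glycogen phosphorylase gene GPH1 by 1.69, TPS1, the trehalose-6-phosphate synthase, by 1.60, the branching enzyme gene GLC3 by 1.47 and the glycogen synthase gene GSY2 by 1.33. The phosphoglucomutase copies parted, PGM2 rising by 1.16 and PGM1 falling by 0.57. Of 23 genes of glycolysis and fermentation 10 rose and 10 fell (median -0.07), or 7 and 12 with median centring in place of loess (median -0.25). The rises were led by GPM2, a homolog of phosphoglycerate mutase, at 2.25, the glucokinase gene GLK1 at 1.48, the hexokinase gene HXK1 at 1.04 and TDH1 at 0.95. TDH3 and TDH2, for the more abundant forms of the TDH1 enzyme, were at 0.39 and 0.29. PFK1, of phosphofructokinase, fell by 0.85, the enolase gene ENO2 by 0.77 and the pyruvate kinase gene CDC19 by 0.71. With median centring, CDC19 was at -1.12 and TDH1 at 0.54, so values of these bright probes depend on the normalisation.

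Ethanol and acetate genes joined the rise only in part. Of 28 genes for gluconeogenesis, the glyoxylate cycle and ethanol use, 21 rose and 3 fell (median 0.33). The aldehyde dehydrogenase genes ALD3, ALD4 and ALD2 rose by 1.75, 1.65 and 1.50 beside ADH2, and ACS1, an acetyl-CoA synthetase, by 0.86. FBP1, the committed enzyme of gluconeogenesis, was at -0.02 and ICL1, of the glyoxylate cycle, at -0.05, and neither passed. Those 2 genes were picked after their values were seen.

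Hexose transporter genes moved in both directions. The near-identical high-affinity transporter genes HXT7 and HXT6, which the probes may not separate, were at 2.45 and 2.24, and HXT5, a transporter of slow growth, rose by 1.43. The low-affinity transporter HXT1 had intensities of 2043 and 2089 in TBP-Y185C, against 5053 and 4216 in WT, 2.23-fold lower (SE 0.06, adjusted p = 1.91e-06). HXT3, another low-affinity transporter, fell by 0.92 and HXT4 by 0.75. Over the 24 genes of this list 9 rose and 9 fell, or 6 and 12 with median centring. In the pentose phosphate pathway 8 of 18 genes rose and 8 fell. The rises were led by NQM1, the 6-phosphogluconate dehydrogenase GND2 at 2.08, SOL4 at 1.92 and ZWF1, glucose-6-phosphate dehydrogenase, at 1.27. RKI1, a ribose isomerase, and the phosphoribosyl synthetase genes PRS5 and PRS4 fell by 0.70, 0.52 and 0.51. Among the galactose genes, GAL7, a transferase, rose by 1.47 although cells were in glucose, whereas the galactokinase gene GAL1 fell by 0.27 and the repressor gene GAL80 by 0.83.

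Of 45 genes of the respiratory chain and ATP synthase 32 rose and 3 fell (median 0.37). Succinate dehydrogenase genes SDH4 and SDH2 rose by 1.86 and 1.60, and subunits QCR9 and QCR8 of the cytochrome bc1 complex by 1.47 and 1.38. For the cytochrome oxidase subunit with alternative isoforms, hypoxic COX5B rose by 1.28 and aerobic COX5A by 0.15 (0.07 without the first array). The rise of COX5A did not pass without the dye term or with the deposited log ratios. NDE1, an external NADH dehydrogenase, fell by 0.67. TCA cycle genes and targets of the retrograde pathway, which reports mitochondrial state to the nucleus, numbered 26, of which 17 rose and 6 fell (median 0.25). CIT2, the peroxisomal citrate synthase and main retrograde target, rose by 1.19 and SDH1 by 1.20, whereas IDP1, a mitochondrial isocitrate dehydrogenase, fell by 1.00. In the list of 70 mitochondrial ribosomal protein genes 38 rose and 20 fell (median 0.12), from MRP8 at 1.51 to MRPL3 at -0.78. Whether MRP8 belongs to this class is uncertain.

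Genes for the making of ribosomes fell. Of 49 genes of the small-subunit processome, which cuts and folds pre-rRNA, 39 fell and 3 rose (median -0.71). PWP2 was at -1.33 and -1.42 on the arrays, UTP21 at -1.42 and -1.14, and UTP10 at -1.32 and -1.20. Of 63 large-subunit assembly genes 53 fell and 7 rose (median -0.54), led by ARX1 and DBP2, then NOG2, a GTPase, at -1.08 and HAS1, a helicase, at -1.06. Among 19 subunit genes of RNA polymerases I and III, which make the rRNA and tRNA, 12 fell and 5 rose (median -0.46). RPC40, shared by both enzymes, fell by 1.32 and RPA135, the second-largest subunit of polymerase I, by 1.22, whereas RPC37 rose by 0.83. Of 42 translation factor genes 30 fell and 6 rose (median -0.32). TMA20 fell by 1.51, the poly(A)-binding protein gene PAB1 by 1.36 and TIF4631, of eIF4G, by 1.10, while SUI1, of start codon choice, rose by 0.65. Of 22 cytosolic aminoacyl-tRNA synthetase genes 19 fell and none rose (median -0.73), with TYS1 at -1.33, MES1 at -1.19 and CRS1 and VAS1 at -1.06 after SES1. Medians of these lists were low in the other strains too. For TBP-F207L and mot1-14 they were -0.59 and -0.74 in the processome and -0.44 and -0.63 in large-subunit assembly. Polymerases I and III were at -0.30 and -0.29, translation factors at -0.44 and -0.35 and the synthetases at -0.63 and -0.74.

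Cytoplasmic ribosomal protein genes were lower as well, though not uniformly. Of 81 large-subunit genes 62 fell and 12 rose (median -0.40), and of 57 small-subunit genes 37 fell and 10 rose (median -0.39). Large falls were seen in RPL8A at -1.49, RPS18A at -1.36, RPL13A at -1.34 and RPS8B at -1.27. RPL29 rose by 0.77, RPL15B by 0.71 and RPL41B by 0.62. With median centring 66 large-subunit genes fell and 4 rose. Yeast keeps many of these genes as copies A and B, and both copies were measured for 59 proteins. Both copies fell in 39 pairs and rose in 2, in 6 pairs one rose while the other fell, and in 12 pairs at least 1 copy did not pass. The pair RPL7A and RPL7B lay farthest apart, at -1.06 and 0.35, a difference of 1.41. RPL15A was at -0.39 (-0.20 without the second array) against 0.71 for RPL15B, and RPS28A at -0.09, which did not pass, against -1.17 for RPS28B. The fall of RPL15A did not pass without the dye term or with the deposited log ratios. In 12 pairs the copies differed by 0.5 or more. The median difference was 0.20. Probes of near-identical copies may share signal, so these differences are uncertain and were not tested.

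**Figure D3:**
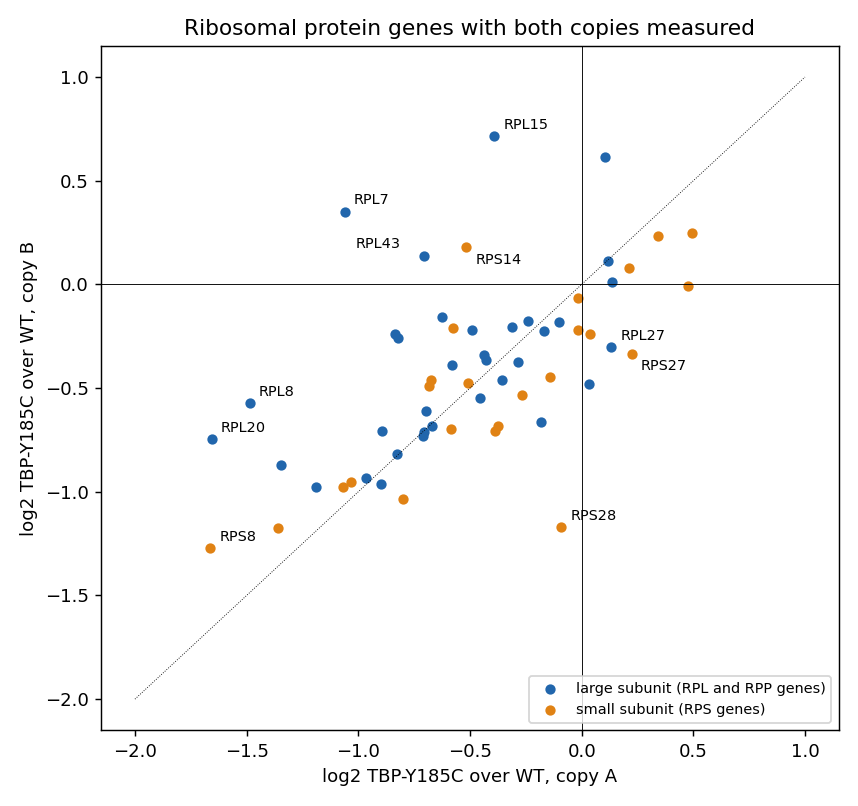
Log2 ratio of TBP-Y185C over WT for copy A (x axis) and copy B (y axis) of the 59 ribosomal protein pairs, with a dotted line of equality. Most pairs lie in the lower left, and RPL7, RPL15, RPL43 and RPS14 lie in the upper left, where copy A fell and copy B rose.

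Of 14 genes for leucine, isoleucine and valine, 8 rose and 4 fell. By 2-fold or more, 6 rose and 1 fell. OAC1, the mitochondrial carrier that exports the leucine precursor, had intensities of 3657 and 3842 in TBP-Y185C, against 819 and 879 in WT, a 4.42-fold rise (SE 0.04, adjusted p = 8.62e-08). LEU4, the first committed enzyme, had 11881 and 12534 in TBP-Y185C, against 3194 and 3316 in WT, 3.75-fold higher. BAT1, the mitochondrial transaminase, rose by 1.49 and ILV2, acetolactate synthase, by 1.30. With LEU1 and LEU2 these are known targets of the activator Leu3, whose own gene LEU3 was at 0.07 and did not pass. The rise of LEU2, counted among the 8, may reflect how the strains were built. BAT2, the cytosolic transaminase, fell by 1.32 and CHA1, a serine and threonine deaminase, by 0.95. The 6 largest rises and these falls, picked by the mean of the 2 arrays, kept their sign and size on both.

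**Figure D4:**
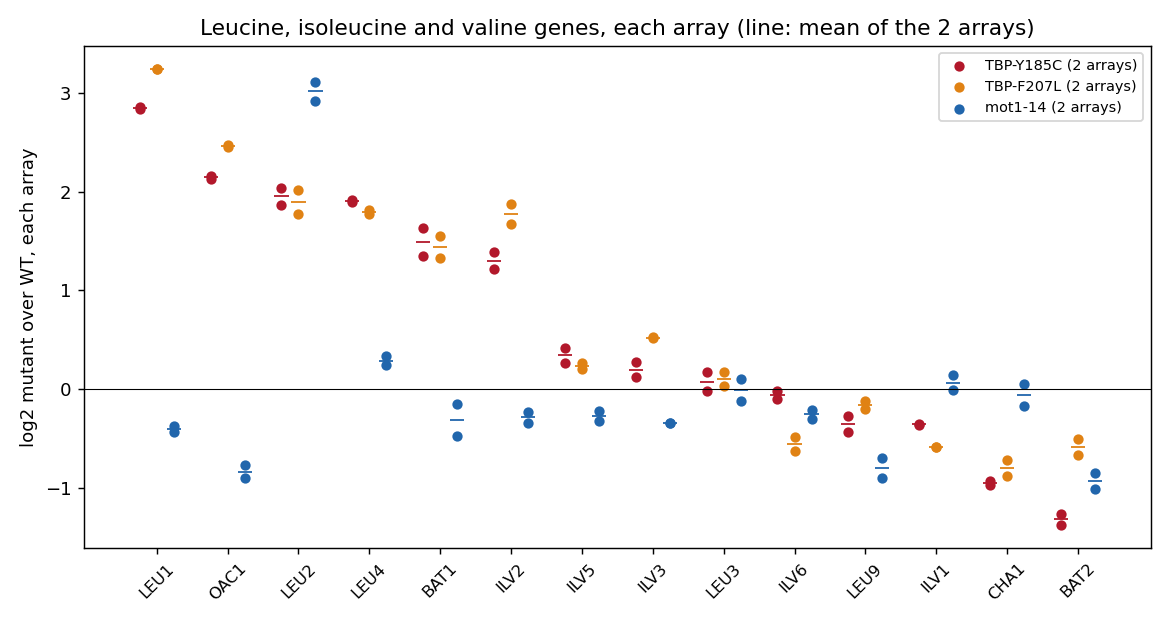
Log2 ratio over WT on each array (points, with a line at the mean of the 2 arrays) for 14 leucine, isoleucine and valine genes in TBP-Y185C (red), TBP-F207L (orange) and mot1-14 (blue), ordered by their value in TBP-Y185C. LEU1, OAC1, LEU4, BAT1 and ILV2 are high in both bypass strains and between -0.84 and 0.28 in mot1-14, while LEU2 is highest in mot1-14.

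Among 42 sulfur, methionine and cysteine genes there were 28 rises and 11 falls (median 0.39). The activator gene MET28 rose by 2.13, MET14, adenylylsulfate kinase, by 2.01, MET17, which fixes sulfide, by 1.52 and MET3, ATP sulfurylase, by 1.42. IRC7 and SAM4, a homocysteine methyltransferase at -1.14, went down. Of 21 serine, glycine and one-carbon genes 13 rose and 7 fell, among them SER3 and AGX1, which makes glycine from glyoxylate, at 1.55, against MIS1 and the dihydrofolate reductase gene DFR1 at -0.98. In arginine, lysine and histidine synthesis 14 of 29 genes rose and 7 fell. CAR2, which breaks down ornithine, rose by 2.21, LYS1 by 1.32 and ARG1 by 1.20, and HIS4 fell by 1.38. Of 15 aromatic amino acid genes 8 rose and 4 fell, and the rises include TRP1, a gene of strain construction. The catabolic genes ARO9 and ARO10 rose by 1.95 and 1.82, and the synthesis gene ARO1 fell by 0.72. Of 41 nitrogen genes 24 rose and 12 fell, with the allantoin gene DAL3 at 1.72, the general permease gene GAP1 at 1.29 and GDH1, glutamate dehydrogenase, at 1.17.

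Of 19 NAD genes (median -0.22) 10 fell and 8 rose, or 52.6% and 42.1%, against 38.8% and 41% of all genes. Besides BNA1, the kynurenine pathway genes BNA7 and BNA5 fell by 1.22 and 0.80, and the nicotinic acid transporter gene TNA1 by 1.10. PNC1, the nicotinamidase, rose by 1.87. Of 25 genes for thiamine and vitamin B6, 14 rose and 5 fell (median 0.15), and the near-identical THI12, THI11 and THI5 were at 1.55, 1.38 and 1.35. Of 6 biotin genes 3 rose and 1 fell, with the synthesis gene BIO3 at 1.74 and BIO2, of its last step, at 0.01, which did not pass. Of 23 purine genes 14 fell and 6 rose (median -0.45), and of 16 pyrimidine genes 10 fell and 3 rose (median -0.21). URA1, dihydroorotate dehydrogenase, fell by 1.03 and URA2, which starts the pathway, by 0.88.

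INO1, the inositol synthase, had intensities of 231 and 235 in TBP-Y185C, against 87 and 89 in WT, 2.66-fold higher on both arrays (SE 0.05, adjusted p = 3.57e-07). The scanner software's own ratio gave 2.77 for INO1 on the log2 scale, against 1.41 here, and the probe was dim in WT. OPI3, of phosphatidylcholine synthesis, rose by 1.59, but over 24 inositol-choline genes 9 rose and 8 fell. Of 28 ergosterol genes 16 rose and 8 fell (median 0.26), with ERG10, the first step, at 1.69, ERG4, the last, at 1.34 and ERG1, squalene epoxidase, at -0.47. Of 23 peroxisomal fatty acid oxidation genes 15 rose and 3 fell. The thiolase gene POT1 was at 2.59 and 2.43, or 3.86 by the deposited ratio, and the auxiliary enzyme genes SPS19 and ECI1 rose by 2.02 and 1.31. FAA4, which activates imported fatty acids, fell by 1.53.

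Among 33 iron genes there were 19 rises and 6 falls (median 0.18). HMX1, heme oxygenase, rose by 2.05, the iron-sulfur scaffold genes ISU2 and ISU1 by 1.65 and 1.08, and TIS11, which destroys mRNAs of iron-using proteins, by 1.37. ATX1, a copper chaperone, fell by 1.00 and the reductase gene FRE1 by 0.76. In the copper and zinc list 8 of 17 genes rose and 6 fell. The metallothionein copies CUP1-1 and CUP1-2, which share sequence, were at 2.49 and 2.52, and their activator gene CUP2 rose by 1.26, while the transporter genes ZRT1 and CTR1 fell by 1.21 and 0.81. Of 27 phosphate genes 13 rose and 11 fell. PHM8 was followed by SPL2 at 1.25, the polyphosphate subunit gene VTC1 at 1.13 and the acid phosphatase gene PHO5 at 1.02, whereas VTC3 and VTC4 fell by 0.56 and 0.55.

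Among 38 cell wall remodelling genes there were 25 rises and 7 falls (median 0.43), with PIR3 at 2.08, the glucan synthase gene GSC2 at 1.66 and CWP1, a mannoprotein, at -0.81. The PAU, DAN and TIR families of cell wall mannoproteins, whose members share sequence, held 30 tested genes, of which 26 rose and 1 fell (median 0.31), with none at 2-fold. Of 45 meiosis and sporulation genes 30 rose and 5 fell (median 0.26), or 21 and 16 with median centring. Besides CDA1 and SPS19, the glucoamylase gene SGA1 rose by 1.68 and the recombinase gene DMC1 by 1.29, and SWM1 fell by 1.18. Of 38 haploid mating genes 15 rose and 12 fell (median 0.06). STE18, a G protein subunit, rose by 1.25, while FAR1, which arrests the cycle on pheromone, fell by 1.34 and STE6, the a-factor exporter, by 1.15. Of 33 G1 and S-phase genes 18 fell and 8 rose (median -0.11), with the replication helicase gene MCM3 at -1.28 and HCM1 at -0.88. Of 28 genes of G2 and M phase 13 fell and 6 rose (median -0.04), or 8 and 6 with median centring (median 0.01). Core histone genes were near WT, with 4 of 11 higher and 2 lower (median 0.01). The DNA damage list held 10 higher and 4 lower genes of 16, with RNR2, of ribonucleotide reductase, at 1.26. Of 27 multidrug transporter genes 12 rose and 10 fell. Of 10 silencing factor and silent locus genes 3 rose and 6 fell, with RAP1, which also binds ribosomal protein promoters, at -1.18 and SIR2, the deacetylase of silencing, at -0.79.

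TBP-Y185C was then set against TBP-F207L, the other bypass strain, within the same fit. The strains share WT on their arrays, so each strain's own values are given and the difference was tested. The difference passed for 2316 of 6232 genes (37.2%), with 1358 higher in TBP-Y185C (21.8%) and 958 lower (15.4%). At 2-fold or more, 10 were higher and 3 lower in TBP-Y185C. With median centring the difference passed for 889 higher and 470 lower genes. The count of 2316 rests on the dye term of the model: without it, 115 genes passed, 86 higher and 29 lower. Without the first TBP-Y185C array it was 920 and without the second 1251.

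Glycolysis and fermentation genes were higher in TBP-Y185C than in TBP-F207L in 16 of 23 cases and lower in none, or 5 and none without the dye term. TDH3, the main glyceraldehyde-3-phosphate dehydrogenase, was at 0.39 in TBP-Y185C and -0.62 in TBP-F207L. ENO2 was at -0.77 in TBP-Y185C, against -1.71 in TBP-F207L, and CDC19 at -0.71 and -1.37 in the same order. Hexose transporter genes were higher in 12 of 24 cases and lower in none, or 3 and none without the dye term, HXT3 being at -0.92 in TBP-Y185C and -1.88 in TBP-F207L. PAU, DAN and TIR genes were higher in 26 of 30 cases, with a median of 0.31 in TBP-Y185C and 0.02 in TBP-F207L, but 1 passed without the dye term. Vacuolar protease genes were higher in 9 of 11 cases, PRC1 being at 1.04 in TBP-Y185C, against 0.25 in TBP-F207L, and 1 passed without the dye term. General stress genes were higher in 30 of 50 cases and lower in 1, with 2 and none passing without the dye term.

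Mating genes ran the other way, lower in TBP-Y185C than in TBP-F207L in 24 of 38 cases and higher in 2. Without the dye term 8 were lower and none higher. MFA1, the a-factor gene, had ratios of 0.21 and -0.24 in TBP-Y185C and averaged 1.29 in TBP-F207L (difference -1.30, SE 0.07, adjusted p = 0.00035). FAR1 fell in both strains, by 1.34 in TBP-Y185C and by 0.49 in TBP-F207L, and PRM2, of cell fusion, was at 0.60 in TBP-Y185C and 1.41 in TBP-F207L. Proteasome genes were lower in 18 of 34 cases and higher in 2, RPN10 being at -0.83 in TBP-Y185C and 0.06 in TBP-F207L. With median centring the difference passed downward for 1 proteasome gene, and 2 passed downward without the dye term. Without the first or the second TBP-Y185C array 9 and 7 did. TFIID subunit genes were lower in 8 of 14 cases and higher in none, or 3 and none with median centring and none without the dye term. Without the first TBP-Y185C array 1 was lower. In leucine synthesis, LEU1 was at 2.85 in TBP-Y185C and 3.24 in TBP-F207L (difference -0.40, SE 0.05, adjusted p = 0.00178) and LEU4 at 1.91 and 1.79, which did not pass.

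**Figure D5:**
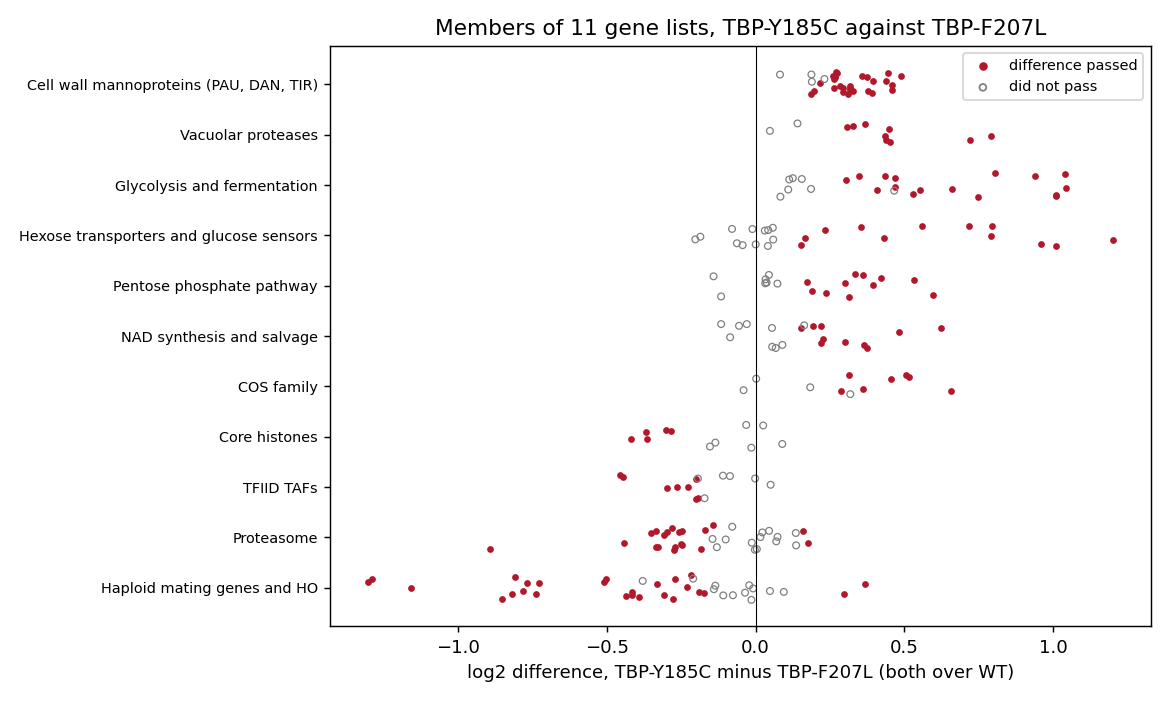
Difference in log2 ratio, TBP-Y185C minus TBP-F207L (x axis), for the tested members of 11 gene lists, filled where the difference passed. Members of the upper lists lie mostly to the right of 0 and mating genes, in the lowest row, mostly to the left.

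Against mot1-14, which keeps a mutant Mot1, the difference passed for 3061 genes (49.1%), with 1602 higher in TBP-Y185C (25.7%) and 1459 lower (23.4%). Of these, 37 were higher and 36 lower by 2-fold or more. The difference passed for 957 genes without the dye term, 536 higher and 421 lower. Leaving out the first TBP-Y185C array gave 1792 genes and leaving out the second mot1-14 array 1929. Large differences were found in the leucine genes. LEU1 was at 2.85 in TBP-Y185C and -0.40 in mot1-14 (difference 3.25, SE 0.05, adjusted p = 1.84e-07), and OAC1 at 2.14 and -0.84 in the same order. LEU4 was at 1.91 in TBP-Y185C and 0.28 in mot1-14, BAT1 at 1.49 and -0.32. Of the 14 genes 9 were higher and 4 lower than in mot1-14, and 8 and 4 without the dye term. The 14 include LEU2, a gene of strain construction, at 1.95 in TBP-Y185C and 3.02 in mot1-14. Iron genes were higher in 20 of 33 cases and lower in 3, with ISU2 at 1.65 in TBP-Y185C and -0.02 in mot1-14 and HMX1 at 2.05 and 0.61. Cytosolic chaperone genes were higher in 21 of 32 cases and lower in 3, such as BTN2 at 2.64 in TBP-Y185C and 1.36 in mot1-14. Sulfur genes were higher in 27 of 42 cases and lower in 4. Without the dye term 10 iron, 14 chaperone and 16 sulfur genes were higher.

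Groups that were lower than in mot1-14 included the COS family of subtelomeric membrane proteins, in 10 of 11 cases. Their median was 0.01 in TBP-Y185C and 1.16 in mot1-14, and 9 passed without the dye term. Whether the probes separate members of this family was not tested. COS12 was at -0.27 in TBP-Y185C (-0.24, not passing, without its first array) and 1.21 in mot1-14. Glycolysis genes were lower in 15 of 23 cases and higher in 3, or 4 and 2 without the dye term, HXK1 being at 1.04 in TBP-Y185C and 2.14 in mot1-14. Ribosomal protein genes of the large subunit were lower in 51 of 81 cases and higher in 4, with medians of -0.40 in TBP-Y185C and -0.11 in mot1-14. For the small subunit they were lower in 35 of 57 cases and higher in 1. Without the dye term these counts were 26 and 15 lower. NAD genes were lower in 9 of 19 cases and higher in 1, or 6 and none without the dye term. BNA1 itself was at -1.73 in TBP-Y185C and -1.77 in mot1-14, a difference of 0.04 (SE 0.06), whereas BNA5 was at -0.80 and 0.53.

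Medians over the genes of each of the 16 chromosomes lay between -0.06 on chromosome VIII and 0.06 on chromosome VI. Over the 5 genes nearest each chromosome end, 160 in all, the median was 0.05 in TBP-Y185C and 0.15 in mot1-14, with 66 higher and 44 lower in TBP-Y185C. Of those 160 genes 5 rose and 4 fell by 2-fold or more.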

How the data were processed

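RNA of TBP-Y185C, TBP-F207L and mot1-14 was hybridised against WT on 6 arrays. Per the file headers, Agilent Feature Extraction 7.5.1 gave mean and background intensity values per channel, deposited without subtraction, for 10807 spots. It also gave the deposited log10 ratio of red over green and a p-value per spot. In the series table the authors deposited, values are log2 red over green, not turned to mutant over WT. Ratios were turned to mutant over WT by the dye labels. In limma 3.58.1 (R 4.3.3), mean signals had their background corrected (normexp, offset 50) and each array was loess-normalised. The 544 control spots and scanner-marked outlier spots were left out, and spots of a probe were averaged. A probe was tested where, on 2 or more arrays, 1 channel or both stood well above background. The limma model held a dye intercept and 1 signed coefficient per mutant, with 2 residual and 4.81 prior degrees of freedom, and p-values were adjusted over all tested genes by Benjamini-Hochberg, at 0.05. In WT, 69 genes had only a bound. The probe of RPL21B was measured on 1 TBP-Y185C array. Array names matched the R64 gene table for 5756 probes and not for 500.

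The genes and 59 lists were chosen with earlier results of these data known, so no list is independent support. Named genes were, by rule, the 15 largest rises and falls with 1 sign on both arrays, the construction genes with their neighbours, up to 6 members of a list in its main direction and 3 in the other, the 8 largest differences each way between strains, the copies of paralog pairs, and INO1, BNA1, URA1 and HSP26. Promoter motifs were not analysed here. The number of arrays limits the precision.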

Additional observations from a re-analysis of the deposited data

Results flagged for a closer look

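Effects of TBP-Y185C and of the other mutants differed by the test of the difference itself for 2316 genes against TBP-F207L and 3061 against mot1-14. The 8 largest differences in each direction are given here as log2 differences, most of them with each strain's own value over WT.

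Against TBP-F207L the largest difference was in HSP26, at 2.23 in TBP-Y185C, against 0.86 in TBP-F207L (difference 1.38). HXT1 was at -1.16 in TBP-Y185C and -2.36 in TBP-F207L (1.20). NCA3, a cell wall glucosidase family member, was at 1.33 in TBP-Y185C and 0.20 in TBP-F207L (1.13). The gene GID10, for a ubiquitin ligase subunit, differed by 1.06 (2.49 in TBP-Y185C, against 1.44 in TBP-F207L), or by 0.70 without the first TBP-F207L array, and by 1.90 with the deposited log ratios, which did not pass. Genes of abundant carbon enzymes differed as well. TDH2 was at 0.29 in TBP-Y185C, against -0.75 in TBP-F207L (1.04), ENO1 at -0.11 and -1.12 (1.01), and ADH1 at -0.60 and -1.64 (1.04). The ADH1 ratios were -0.13 and -1.06 on the TBP-Y185C arrays, and the difference was 0.78 without the first of them. Over WT, ADH1 did not pass without the dye term or with the deposited log ratios. The value of ENO1 over WT no longer passed when either TBP-Y185C array was left out (-0.08 and -0.14), without the dye term or with the deposited log ratios (-0.02), while its difference passed under each alternative run. GRE2, a methylglyoxal reductase, was at -0.20 in TBP-Y185C and -1.23 in TBP-F207L (1.03).

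Lower in TBP-Y185C than in TBP-F207L were the mating genes MFA1 (-0.02 in TBP-Y185C, against 1.29 in TBP-F207L, difference -1.30), ASG7 (-0.02 and 1.27, -1.29), FIG1 (0.39 and 1.55, -1.16) and FAR1 (-1.34 and -0.49, -0.85). Over WT, FIG1 was at 0.22 in TBP-Y185C and did not pass without the first TBP-Y185C array, nor did it pass with the deposited log ratios (0.48). BIO2 was at 0.01 in TBP-Y185C, against 0.93 in TBP-F207L (-0.92), and RPN10 at -0.83 and 0.06 (-0.89). The overlapping reading frames YIL082W and YIL082W-A differed by -0.85 and -0.92. The YIL082W difference was -0.62 and did not pass without the second TBP-Y185C array, and -0.44 without the second TBP-F207L array. Without the dye term, GID10, ADH1, MFA1, BIO2 and YIL082W no longer passed, nor did ADH1 and YIL082W with the deposited log ratios.

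Against mot1-14 the genes of strain construction differed most, MOT1 by -5.68, TRP1 by 5.42, SPT15 by 4.44 and PEA2 by 3.86. MOT1 was at -3.51 in TBP-Y185C and 2.17 in mot1-14, and TRP1 at 4.83 and -0.59. SPT15 was at 4.08 in TBP-Y185C and -0.36 in mot1-14, and PEA2 at 3.54 and -0.32. LEU1 (3.25) and OAC1 (2.98) followed, then SER3, at 2.69 in TBP-Y185C and 0.58 in mot1-14 (2.11), BAT1 (1.80) and GID10, at 2.49 in TBP-Y185C and 0.77 in mot1-14 (1.72). Lower in TBP-Y185C were YIR043C, at -0.06 in TBP-Y185C and 2.07 in mot1-14 (-2.12), and BNA4, at -0.50 and 1.56 (-2.06). FRE7, a metal reductase gene, was at -0.92 in TBP-Y185C and 0.87 in mot1-14 (-1.79), CWP1 at -0.81 and 0.82 (-1.63), and IRC7 at -1.65 and -0.01 (-1.64). COS8 was at 0.17 in TBP-Y185C and 1.68 in mot1-14 (-1.51), and FSH1, a serine hydrolase gene, at -0.69 and 0.81 (-1.49). The differences against mot1-14 named here passed under every alternative run. Groups of 2 arrays were not tested for outlying samples.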

How the results depend on the processing

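The count of genes that passed in TBP-Y185C over WT, 4970, stayed within 1.5 times under other background corrections, centring, deposited ratios, filters and dye terms, and lay between 4051 and 5123 when 1 array was left out. It was 2066 by the scanner software's p-values. The difference from TBP-F207L (2316 genes) passed for 1359 with median centring, 1408 with the deposited log ratios, 1457 with the series table, 115 without the dye term, and 920 to 2304 when 1 array was left out. The difference from mot1-14 (3061) passed for 957 without the dye term and 1792 to 3545 when 1 array was left out. Where 1 array remained, it was assumed to vary like the others. Of the 251 named genes that passed over WT, 0 changed direction, 10 no longer passed under some alternative and 22 moved by over 1.5 times, 13 of them with the deposited log ratios (HXT5, for example, was at 3.22, against 1.43). YCL021W-A, which had not passed at 0.07, was at -0.27 and passed with median centring. The cause was not tested. No paired analysis was possible because array numbers stand for dye orientation only. Slide as a block was not run, as each slide held 1 strain, and neither were promoter motifs.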
